A study of Mus musculus with 13 samples.

Results

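The 51 genes described here carry out the DNA damage checkpoint and DNA repair in mouse cells. They were taken from a list of gene symbols and matched by name to the deposited expression table, where 50 of the 51 were found among 13222 genes. *Ddb2* is not analysed here. All 50 passed the filter on low reads, so that 50 of the 12319 genes tested were checkpoint or repair genes. By pathway, they comprised 10 checkpoint genes, 12 genes of homologous recombination, 9 Fanconi genes, 5 genes of end joining, 2 of mismatch repair, 5 of nucleotide excision repair and 7 of base excision and strand break repair. Bulk RNA came from 4T1-Thy1.1, a line of 4T1 mouse mammary carcinoma cells (from a BALB/c mouse) that expresses a Thy1.1 transgene, and all groups share this transgene. The labels give all groups a medium of DMEM/F12 with serum, while the paper's methods name RPMI with serum for culture of this line. Cells at 25% confluency in 12 well plates received no drug (control, n = 3), 200 ng/mL doxorubicin (DOX, n = 4), 200 ng/mL DOX with 25 ng/mL recombinant mouse IL-17A (DOX+IL-17A, n = 3) or 25 ng/mL IL-17A (IL-17A, n = 3) for 48 hours. The comparisons ask how repair gene RNA differs with the drug, and whether the cytokine IL-17A changes that difference. The study's methods speak of biological replicates in general, and the labels do not say whether these libraries are separate cultures, so p-values measure the spread between these libraries.

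DOX is an anthracycline that inserts into DNA and traps topoisomerase II on its cut ends, which leaves DNA breaks. Broken ends are sensed by the kinase ATM and single-stranded DNA at stalled forks by the kinase ATR, and both signal through checkpoint kinases that hold the cell cycle. Homologous recombination copies the missing sequence from a sister chromatid and is restricted to S and G2 phases, the Fanconi pathway unhooks strands that are covalently linked, and end joining ligates broken ends directly in any phase. Mismatch repair corrects replication errors, and the excision pathways replace damaged bases or short stretches. Many of these genes are transcribed in S phase, and much of their regulation acts on the proteins and not on their RNA.

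Values are TMM-normalized and are close to CPM (reads scaled to library size). They were made from 3′ end reads and are not scaled to transcript length, so levels are compared between groups and not between genes. Reads on genes ranged from 4445592 to 16930600 per library, and a count of 3 reads, taken as the limit of detection, corresponded to values of 0.183 to 0.613 depending on the library. These limits cover counting error only, since the reads carry no molecular identifiers. Control replicate 1 stood apart from the other controls. It lay more than 2-fold from their mean in 15 of the 50 repair genes (5 higher, 10 lower) and in 32.4% of all tested genes, against 6 repair genes for control replicate 3 and 5 for control replicate 5, each measured the same way. Results are therefore also given without it. IL-17A replicate 5 was more than 2-fold from the mean of the other IL-17A libraries in 6 repair genes, and its deviations ran with those of control replicate 1 (Pearson's r = 0.47 across all tested genes, which are not independent replicates). Without it, 0 repair genes passed for IL-17A against control and 5 for DOX+IL-17A against IL-17A, against 0 and 6 with it. Epithelial markers of this carcinoma line were present in all libraries, and 5 of the 8 listed fell with DOX while *Krt14* rose. Their sum was 2015 to 2395 in control, 1083 to 1160 in DOX, 927 to 1191 in DOX+IL-17A and 1789 to 2165 in IL-17A. Of the 8 immune cell markers listed, 5 were in the table, and *Cd68* and *Cd74* rose with DOX. Their sum was 24.4 to 36.2 in control, 51.2 to 79.8 in DOX, 22.0 to 46.6 in DOX+IL-17A and 18.9 to 23.7 in IL-17A, and the pan-leukocyte gene *Ptprc* was at 3.57 or less in every library. With DOX+IL-17A, *Ptprc* rose to 3.01 ± 0.561 (SD, n = 3) from a control level of 0.685 ± 0.754 (SD, n = 3) and *Dcn*, 1 of 4 fibroblast and endothelial markers, from 0.236 ± 0.0676 (SD, n = 3) to 2.08 ± 0.565 (SD, n = 3), and both also passed relative to IL-17A. The immune marker *Csf1r* and the fibroblast marker *Pdgfra* went the other way, below every control in each DOX+IL-17A library, and did not pass. *Csf1r* spanned 2.48 to 9.55 with DOX+IL-17A against control values of 14.1 to 16.7. *Pdgfra* spanned 5.86 to 14.7 against 15.4 to 30.1. None of the 4 fibroblast and endothelial markers passed with DOX (sums of 43.2 to 97.8 in control and 23.8 to 64.8 in DOX, 41.3 to 53.2 in DOX+IL-17A and 36.0 to 49.3 in IL-17A). The sum of 8 muscle and red blood cell markers was 256 in DOX replicate 1 and 4.74 to 42.5 in the other libraries. The part of these shifts in the results was not tested, and in bulk RNA fewer cells of a type and less RNA per cell cannot be told apart.

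**Figure D1:**
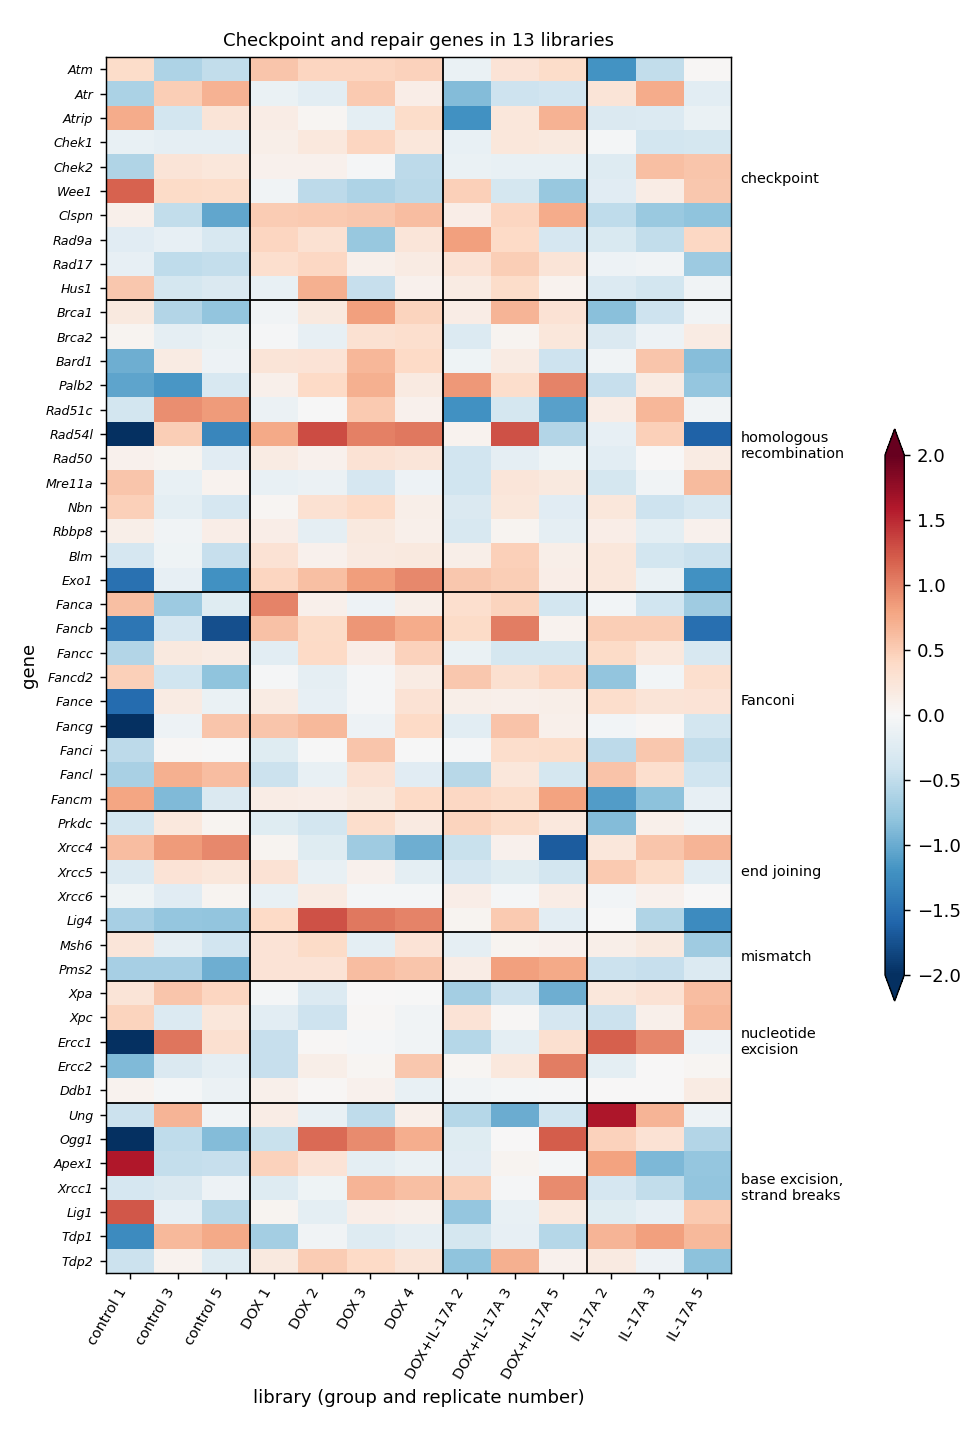
Levels of the 50 checkpoint and repair genes (rows, grouped by pathway) in the 13 libraries (columns, grouped by treatment), as log2(value + 1) minus the mean of the gene over the 13 libraries, with red above and blue below the mean and the color scale ending at 2 in either direction. Control 1 holds the most extreme blue cells, in *Rad54l*, *Fancg*, *Ercc1* and *Ogg1*, and *Lig4*, *Exo1* and *Clspn* are red throughout DOX.

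With DOX, RNA of a small group of repair genes changed and most of the checkpoint and repair machinery did not pass the test. *Rad54l* and *Exo1*, which act in homologous recombination, *Fancb* of the Fanconi core complex, *Ogg1*, a glycosylase for oxidized guanine, and *Lig4*, the ligase of end joining, rose by 3.17-fold to 4.66-fold on the log2(value + 1) scale. *Palb2*, *Pms2*, *Clspn* and *Rad17* rose by 1.56-fold to 2.29-fold, while *Xrcc4* fell 2.42-fold and *Wee1* 2.12-fold. Of the 50 genes, 9 rose and 2 fell at an adjusted p under 0.05 (limma, adjusted by the Benjamini-Hochberg method over all genes tested), and 10 of these 11 were also past a 2-fold change, the exception being *Rad17*. Among all genes tested 12.4% rose and 9.71% fell, and 15.3% were past both thresholds, so that repair genes passed about as often (22%) as all genes (22.1%). The median log2 fold change was 0.24 over the 50 repair genes and 0.089 over all genes. In 14 of the 50 every DOX library lay above every control library and in 3 every DOX library lay below, against 18.5% and 15.2% of all genes. Scaling by library size in place of TMM moved the median of all genes to 0.24 and that of the repair genes to 0.40. With this scaling 13 repair genes rose and 1 fell (28%), and 2104 of all 12319 genes rose and 830 fell (23.8%).

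**Figure D2:**
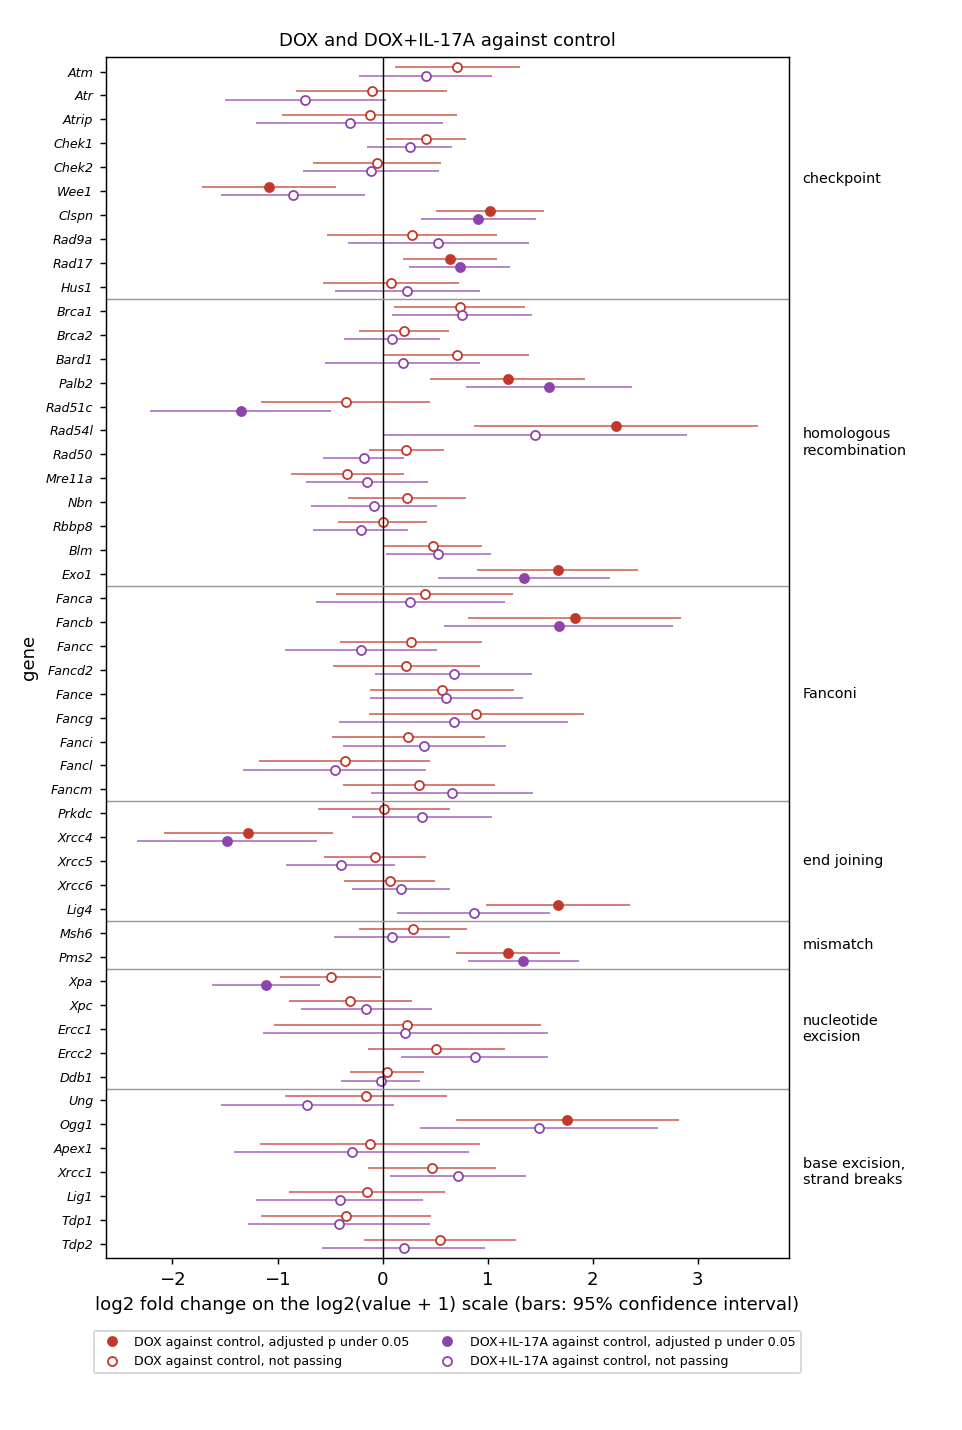
Log2 fold change on the log2(value + 1) scale of the 50 genes in DOX (red) and in DOX+IL-17A (purple) against control, with 95% confidence intervals. Filled points have an adjusted p under 0.05. The DOX points run from -1.28 in *Xrcc4* to 2.22 in *Rad54l*, and both sets of points share the 3 control libraries.

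The sequence upstream of the start site is shown for 4 genes that rose with DOX and in which a CCAAT box was found in a stretch free of annotated exons. RefSeq promoters (GRCm38.p6, from 250 bases before to 50 bases after the start site) were given for 40 of the 50 genes and for 8 of the 9 that rose. The stretches are written in the direction of transcription, with CCAAT or its complement ATTGG in capitals. *Clspn* is at chr4:126556735-126556934, plus strand, *Rad54l* at chr4:116123691-116123839, minus strand, *Pms2* at chr5:143909848-143909963, plus strand and *Ogg1* at chr6:113326772-113326971, plus strand.
Clspn: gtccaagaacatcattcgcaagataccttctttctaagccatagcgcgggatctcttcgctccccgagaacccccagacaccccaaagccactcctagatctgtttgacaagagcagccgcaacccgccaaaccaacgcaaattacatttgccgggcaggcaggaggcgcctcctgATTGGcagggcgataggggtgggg
Rad54l: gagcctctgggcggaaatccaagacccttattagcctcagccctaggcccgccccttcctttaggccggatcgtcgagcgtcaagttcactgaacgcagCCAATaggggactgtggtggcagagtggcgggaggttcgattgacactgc
Pms2: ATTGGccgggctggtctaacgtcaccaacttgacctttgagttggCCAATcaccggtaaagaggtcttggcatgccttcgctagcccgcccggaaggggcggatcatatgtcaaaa
Ogg1: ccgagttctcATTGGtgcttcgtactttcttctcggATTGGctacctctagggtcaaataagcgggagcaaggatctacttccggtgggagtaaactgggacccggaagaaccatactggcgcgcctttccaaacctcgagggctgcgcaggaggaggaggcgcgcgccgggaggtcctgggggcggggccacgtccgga

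CCAAT, read on both strands, was in the promoters of 6 of these 8 genes (*Clspn*, *Fancb*, *Ogg1*, *Palb2*, *Pms2* and *Rad54l*), of 23 of the 40 repair genes (57.5%) and of 41.1% of all 27025 genes with a promoter. An E2F motif, searched as TTTCCCGC, TTTGGCGC, TTTCGCGC or TTTGCCGC on both strands, was in 9 of 40 (22.5%), against 2.61% of all genes. Of these 9 genes, *Clspn* rose with DOX, and *Bard1*, *Brca2*, *Chek2*, *Fancg*, *Lig1*, *Msh6*, *Rad51c* and *Xrcc6* did not pass. The CHR motif TTTGAA of mitotic genes was in 3 of 40 promoters (7.50%) against 20.2% of all genes. It was in none of the 8 that rose. The searched letters of one motif do not contain those of another. A match describes letters in this window and not a bound site.

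The checkpoint group held a mediator that rose and a kinase that fell. Of its 10 genes, 2 rose, 1 fell and 7 did not pass. *Clspn* (chr4:126556935-126593903) encodes Claspin, which brings the kinase CHK1 to ATR at stalled forks. Its values were 79.7, 52.8 and 35.5 in control replicates 1, 3 and 5 and 106, 107, 108 and 114 in DOX replicates 1 to 4. The DOX libraries lay close together and all above the highest control (log2 fold change 1.02, standard error 0.24, adjusted p = 0.0080, and 1.31 with adjusted p = 0.00054 without control replicate 1). *Clspn* passed in each of the 13 fits without 1 library, with changes of 0.74 to 1.31. *Rad17* (chr13:100617164-100651051) encodes the loader of the checkpoint clamp, and went from 40.9, 32.1 and 32.9 in control to 58.7, 61.7, 49.9 and 51.8 in DOX. The groups did not overlap, and the difference was the smallest among those that passed (log2 fold change 0.64, standard error 0.21, adjusted p = 0.042, and 0.75 with adjusted p = 0.024 without control replicate 1). The *Rad17* call was lost when control replicates 3 or 5, DOX replicates 1, 2, 3 or 4, DOX+IL-17A replicate 3 or IL-17A replicate 3 was left out (adjusted p up to 0.12, with changes of 0.58 to 0.75 over the 13 fits without 1 library).

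*Wee1* (chr7:110122046-110143286) encodes the kinase that inhibits CDK1 and so holds cells before mitosis. It was at 112, 63.9 and 63.4 in control and 46.4, 33.7, 31.6 and 33.4 in DOX. All DOX libraries lay below all controls, and control replicate 1 was the highest of the 3 (log2 fold change -1.08, standard error 0.30, adjusted p = 0.019, and -0.81 with adjusted p = 0.062 without control replicate 1). The *Wee1* call was lost when control replicate 1 or DOX replicate 3 was left out (adjusted p up to 0.062, with changes of -1.22 to -0.81 over the 13 fits without 1 library).

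In the fit of all libraries, neither *Atr* and *Atm*, the kinases at the head of the pathway, nor the checkpoint kinase gene *Chek1* below them passed. *Chek1*, the kinase CHK1, was at 74.9, 73.0 and 73.0 in control and 89.6, 95.9, 112 and 97.0 in DOX. Every DOX library was above every control (log2 fold change 0.41, standard error 0.18, adjusted p = 0.11, 95% confidence interval 0.034 to 0.79). *Atr* was at 14.0, 31.9 and 37.0 in control and 20.4, 19.3, 32.7 and 24.6 in DOX, and the groups overlapped (log2 fold change -0.11, standard error 0.34, adjusted p = 0.85, 95% confidence interval -0.82 to 0.61). *Atm* was at 121, 60.7 and 66.2 in control and 138, 126, 126 and 129 in DOX. It is named after its values were seen, since control replicate 1 decided the call, with a log2 fold change of 0.71 and adjusted p = 0.080 in the fit of all libraries, and 1.02 with adjusted p = 0.010 without control replicate 1. *Chek2*, *Atrip*, *Rad9a* and *Hus1* had log2 fold changes of -0.12 to 0.28. The 3′ end of *Atrip* overlaps exons of *Trex1* on the same strand, and the end of *Rad9a* overlaps *Ppp1ca* on the other strand, so their reads could be shared.

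In homologous recombination, *Rad54l*, *Exo1* and *Palb2* rose and the other 9 of the 12 genes did not pass. *Rad54l* (chr4:116094264-116123690) encodes the motor protein RAD54, which drives strand invasion and exchange. It was at 1.35, 21.5 and 5.42 in control and 25.8, 38.2, 31.0 and 32.1 in DOX. All DOX libraries lay above the controls, among which control replicate 1 was lowest (log2 fold change 2.22, standard error 0.64, adjusted p = 0.022, and 1.44 with adjusted p = 0.080 without control replicate 1). The *Rad54l* call was lost when control replicates 1 or 5 or DOX replicate 2 was left out (adjusted p up to 0.080, with changes of 1.44 to 3.06 over the 13 fits without 1 library), and under voom with limma (adjusted p = 0.066) and edgeR (adjusted p = 0.092). Its value in control replicate 1 rests on 8 reads.

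*Exo1* (chr1:175880581-175913489), a nuclease that resects DNA ends and also serves mismatch repair, was at 6.94, 18.9 and 8.60 in control and 29.2, 32.8, 39.0 and 42.4 in DOX. The groups did not overlap (log2 fold change 1.67, standard error 0.36, adjusted p = 0.0049, and 1.40 with adjusted p = 0.013 without control replicate 1). *Exo1* passed in each of the 13 fits without 1 library, with changes of 1.40 to 2.06. *Palb2* (chr7:122107262-122132985), which joins BRCA1 to BRCA2, was low throughout, at 1.52, 1.34 and 3.18 in control and 4.59, 5.91, 7.55 and 4.92 in DOX. The DOX libraries lay above the controls (log2 fold change 1.19, standard error 0.35, adjusted p = 0.024, and 1.09 with adjusted p = 0.056 without control replicate 1). The *Palb2* call was lost when control replicates 1 or 3 or DOX replicates 2 or 3 was left out (adjusted p up to 0.075, with changes of 1.03 to 1.45 over the 13 fits without 1 library).

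*Brca1*, which directs broken ends to recombination, was at 36.9, 21.2 and 18.3 in control and 30.5, 36.9, 57.2 and 44.3 in DOX. Control replicate 1 lay inside the DOX range and the other controls below it (log2 fold change 0.73, standard error 0.29, adjusted p = 0.084, and 1.03 with adjusted p = 0.017 without control replicate 1), so this call turned on that library. Its partner *Bard1* and the helicase gene *Blm* had log2 fold changes of 0.70 and 0.48 with no overlap between groups, and did not pass (adjusted p = 0.13 and 0.13). The break sensor *Mre11a*-*Rad50*-*Nbn* had log2 fold changes of -0.34, 0.23 and 0.23 and did not pass. *Brca2*, *Rbbp8* and *Rad51c* lay between -0.35 and 0.21.

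A single Fanconi gene of the 9 passed with DOX. *Fancb* (chrX:164980592-164997272), a subunit of the core complex that attaches ubiquitin to FANCD2, was at 1.86, 5.18 and 1.3 in control and 10.7, 9.20, 13.3 and 12.0 in DOX. The groups did not overlap (log2 fold change 1.83, standard error 0.48, adjusted p = 0.014, and 1.70 with adjusted p = 0.030 without control replicate 1). The *Fancb* call was lost when control replicate 5 was left out (adjusted p up to 0.066, with changes of 1.54 to 2.25 over the 13 fits without 1 library), and under voom with limma (adjusted p = 0.056). *Fancd2*, the protein that the core complex modifies, was at 21.8, 11.4 and 8.37 in control and 15.1, 13.5, 15.1 and 17.3 in DOX. Control replicate 1 was the highest of these 7 libraries and the other controls were the lowest (log2 fold change 0.22, standard error 0.33, adjusted p = 0.65, 95% confidence interval -0.48 to 0.92). Its 3′ end overlaps the antisense gene *Fancd2os*. The other 7 genes had log2 fold changes from -0.36 in *Fancl* to 0.89 in *Fancg*, whose value in control replicate 1 rests on 1 read.

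Within end joining, 2 partners of the same ligation complex moved in opposite directions. *Lig4* (chr8:9969049-9977686), the DNA ligase, was at 9.47, 8.65 and 8.60 in control and 20.8, 39.1, 33.3 and 32.1 in DOX. The controls lay close together and every DOX library was above them (log2 fold change 1.67, standard error 0.32, adjusted p = 0.0024, and 1.71 with adjusted p = 0.0029 without control replicate 1). *Lig4* passed in each of the 13 fits without 1 library, with changes of 1.56 to 1.85. *Xrcc4* (chr13:89774027-90089608), the scaffold that stabilizes this ligase, was at 19.8, 23.6 and 25.3 in control and 13.1, 10.5, 7.27 and 5.90 in DOX. Every DOX library was below every control (log2 fold change -1.28, standard error 0.38, adjusted p = 0.025, and -1.37 with adjusted p = 0.027 without control replicate 1). The *Xrcc4* call was lost when control replicates 3 or 5 or DOX replicates 3 or 4 was left out (adjusted p up to 0.079, with changes of -1.45 to -1.11 over the 13 fits without 1 library), and under scaling by library size (adjusted p = 0.053).

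The kinase and the end-binding subunits of this pathway did not pass. *Prkdc*, the catalytic subunit of the DNA-dependent protein kinase, was at 12.9, 19.5 and 17.4 in control and 14.0, 12.8, 21.7 and 19.2 in DOX (log2 fold change 0.014, standard error 0.29, adjusted p = 0.98, 95% confidence interval -0.61 to 0.64). The Ku subunit genes *Xrcc6* and *Xrcc5* had log2 fold changes of 0.066 and -0.070, with 95% confidence interval -0.37 to 0.50 and -0.56 to 0.42.

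**Figure D3:**
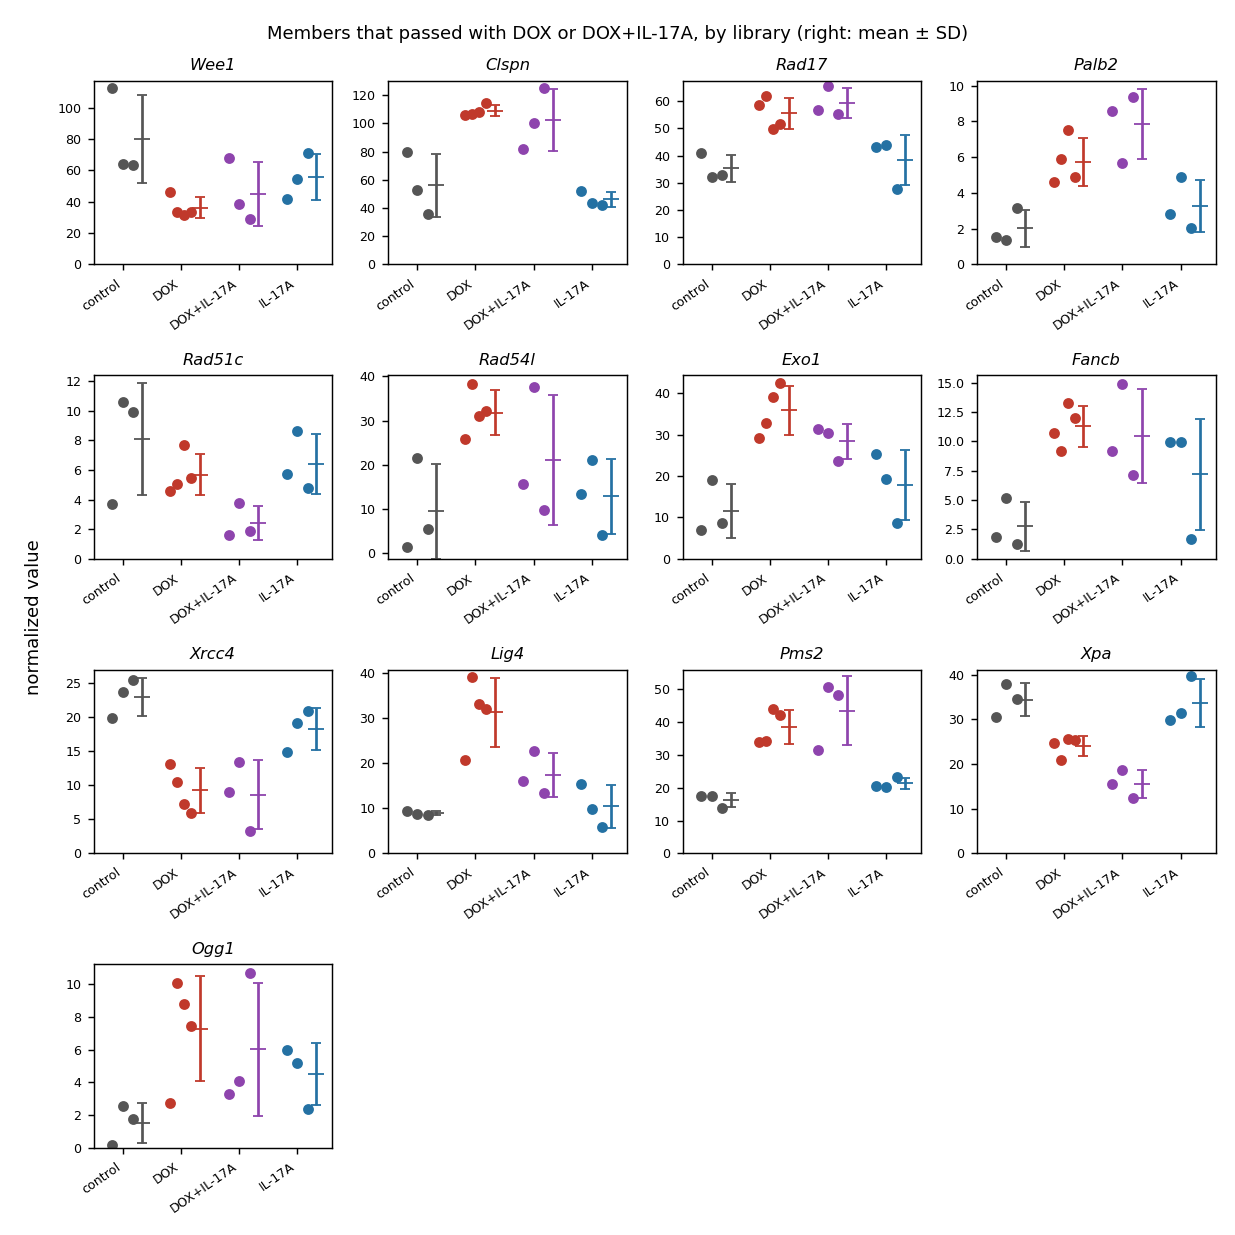
Normalized values of the 13 genes that passed in DOX or DOX+IL-17A against control, in each library (points, by group) with the mean and SD to the right of each group. *Lig4* is at 8.60 to 9.47 in the controls and 20.8 to 39.1 in DOX, *Xrcc4* is lower in both groups with DOX than in both without, and the spread of *Rad54l* in control exceeds its mean.

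In mismatch repair, *Pms2* (chr5:143909964-143933968), a subunit of the MutL endonuclease, rose. It was at 17.4, 17.5 and 13.9 in control and 34.1, 34.3, 43.9 and 42.1 in DOX, and the groups were well apart (log2 fold change 1.19, standard error 0.23, adjusted p = 0.0024, and 1.24 with adjusted p = 0.0023 without control replicate 1). *Pms2* passed in each of the 13 fits without 1 library, with changes of 1.09 to 1.25. *Msh6*, part of the complex that recognizes the mismatch, was at 95.6, 71.4 and 62.0 in control and 98.0, 106, 70.3 and 98.2 in DOX. The groups overlapped (log2 fold change 0.29, standard error 0.24, adjusted p = 0.41, 95% confidence interval -0.23 to 0.81), and the 3′ end of *Msh6* overlaps *Fbxo11* on the other strand.

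None of the 5 nucleotide excision repair genes passed with DOX. *Ddb1*, a subunit of the ubiquitin ligase that finds ultraviolet damage, varied little. It ranged from 896 to 1122 over the 13 libraries (log2 fold change 0.043, standard error 0.16, adjusted p = 0.88, 95% confidence interval -0.31 to 0.39). *Xpa*, which verifies the lesion, was lower in every DOX library, at 30.6, 38.0 and 34.5 in control and 24.7, 20.8, 25.6 and 25.4 in DOX (log2 fold change -0.49, standard error 0.23, adjusted p = 0.13). *Ercc1*, a subunit of a repair nuclease, had control replicate 1 far below the others, at 3.55, 52.5 and 30.9 in control and 17.6, 25.1, 24.2 and 23.2 in DOX (log2 fold change 0.24, standard error 0.60, adjusted p = 0.81, and -0.82 with adjusted p = 0.10 without control replicate 1). *Xpc* and *Ercc2* had log2 fold changes of -0.31 and 0.51. The 3′ ends of *Ercc1* and *Ercc2* overlap *Cd3eap* and *Klc3* on the other strand.

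Of the 7 genes of base excision and strand break repair, *Ogg1* rose and 6 did not pass. *Ogg1* (chr6:113326972-113335068) was at 0.169, 2.56 and 1.77 in control and 2.74, 10.1, 8.81 and 7.42 in DOX. The lowest DOX library lay just above the highest control, and the value of control replicate 1 rests on 1 read, under the limit of detection (log2 fold change 1.76, standard error 0.50, adjusted p = 0.021, and 1.28 with adjusted p = 0.075 without control replicate 1). The *Ogg1* call was lost when control replicate 1 or DOX replicates 2, 3 or 4 was left out (adjusted p up to 0.075, with changes of 1.28 to 2.10 over the 13 fits without 1 library), and under voom with limma (adjusted p = 0.10). The 3′ end of *Ogg1* overlaps *Camk1* on the other strand. *Tdp2*, which frees broken ends from trapped topoisomerase II, was at 12.9, 18.6 and 14.5 in control and 20.4, 25.5, 23.5 and 21.4 in DOX. All DOX libraries lay above the controls, and it did not pass (log2 fold change 0.55, standard error 0.34, adjusted p = 0.26, 95% confidence interval -0.18 to 1.27). *Tdp1*, which does the same for topoisomerase I, was at 10.3, 41.4 and 44.7 in control and 15.9, 24.9, 21.7 and 22.9 in DOX. It is named after its values were seen, since the call turned on control replicate 1 (log2 fold change -0.34, standard error 0.38, adjusted p = 0.54, and -1.0 with adjusted p = 0.0075 without control replicate 1). *Ung*, *Apex1*, *Lig1* and *Xrcc1* had log2 fold changes of -0.16 to 0.47.

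With DOX and IL-17A together, 6 of the 50 genes rose relative to control and 3 fell, and 7 of the 9 were past a 2-fold change. Among all genes 17.7% passed, 9.37% rose and 8.34% fell, and 12.9% were past both thresholds. *Fancb*, *Palb2*, *Exo1*, *Pms2*, *Clspn* and *Rad17* rose, and *Xrcc4*, *Rad51c* and *Xpa* fell. The median log2 fold change was 0.21 over the 50 genes and 0.044 over all genes. In 11 genes every DOX+IL-17A library lay above every control and in 2 below (15.6% and 14.5% of all genes). In a fit of the 6 compared libraries alone, which estimates the spread from fewer libraries, 1 of the 50 genes passed (*Pms2*). In the fit of all groups without control replicate 5, 3 passed. Shares of all genes in these fits are not given here, so a loss particular to the repair genes cannot be read from these counts. Scaling by library size moved the median of all genes to 0.20 and that of the 50 genes to 0.37.

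*Palb2* was at 8.59, 5.66 and 9.36 in DOX+IL-17A replicates 2, 3 and 5, all above the controls (log2 fold change 1.58, standard error 0.37, adjusted p = 0.0098, and 1.48 with adjusted p = 0.018 without control replicate 1). *Palb2* passed in each of the 13 fits without 1 library, with changes of 1.42 to 1.84. *Fancb* was at 9.20, 14.9 and 7.18 (log2 fold change 1.68, standard error 0.51, adjusted p = 0.035, and 1.54 with adjusted p = 0.057 without control replicate 1). The *Fancb* call was lost when control replicates 1 or 5 or DOX+IL-17A replicates 2 or 3 was left out (adjusted p up to 0.13, with changes of 1.39 to 2.10 over the 13 fits without 1 library), and under voom with limma (adjusted p = 0.10). The DOX+IL-17A values of these genes lay above every control, as did those of *Exo1*, *Pms2*, *Clspn* and *Rad17*. *Pms2* was at 31.5, 50.6 and 48.4 (log2 fold change 1.34, standard error 0.25, adjusted p = 0.0023). *Pms2* passed in each of the 13 fits without 1 library, with changes of 1.22 to 1.55. *Clspn* was at 81.6, 100.1 and 125 (log2 fold change 0.91, standard error 0.26, adjusted p = 0.025). The *Clspn* call was lost when control replicate 5 or DOX+IL-17A replicates 3 or 5 was left out (adjusted p up to 0.11, with changes of 0.63 to 1.2 over the 13 fits without 1 library).

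*Exo1*, at 31.3, 30.4 and 23.6, had a log2 fold change of 1.35 (adjusted p = 0.026, limma). The *Exo1* call was lost when control replicates 1 or 5 or DOX+IL-17A replicates 2 or 3 was left out (adjusted p up to 0.085, with changes of 1.08 to 1.74 over the 13 fits without 1 library), and under voom with limma (adjusted p = 0.056). *Rad17*, at 56.8, 65.5 and 55.2, had a log2 fold change of 0.73 (adjusted p = 0.037). The *Rad17* call was lost when control replicates 3 or 5, DOX replicates 1 or 4 or DOX+IL-17A replicates 2, 3 or 5 was left out (adjusted p up to 0.12, with changes of 0.66 to 0.84 over the 13 fits without 1 library). Each DOX+IL-17A library lay above each control in both genes.

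The genes that fell included *Rad51c* (chr11:87376645-87404954), which acts in homologous recombination. It was at 3.72, 10.6 and 9.90 in control, 4.59, 5.04, 7.69 and 5.45 in DOX and 1.64, 3.77 and 1.87 in DOX+IL-17A. Control replicate 1 lay within the DOX+IL-17A range and the other controls far above it (log2 fold change -1.35, standard error 0.41, adjusted p = 0.032, and -1.77 with adjusted p = 0.0048 without control replicate 1). The *Rad51c* call was lost when control replicates 3 or 5 or DOX+IL-17A replicates 2 or 5 was left out (adjusted p up to 0.11, with changes of -1.77 to -1.12 over the 13 fits without 1 library), and under scaling by library size (adjusted p = 0.057). *Xpa* (chr4:46155347-46196311) was at 15.5, 18.8 and 12.4, below every control and every DOX library (log2 fold change -1.11, standard error 0.24, adjusted p = 0.0063, and -1.19 with adjusted p = 0.0044 without control replicate 1). *Xpa* passed in each of the 13 fits without 1 library, with changes of -1.25 to -0.96. The end of *Xpa* overlaps *Ncbp1* on the other strand. *Xrcc4* was at 9.0, 13.4 and 3.31 (log2 fold change -1.48, standard error 0.40, adjusted p = 0.021). The *Xrcc4* call was lost when control replicate 5 or DOX+IL-17A replicate 5 was left out (adjusted p up to 0.076, with changes of -1.86 to -0.99 over the 13 fits without 1 library).

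Genes chosen for their role gave no call in DOX+IL-17A. *Chek1* was at 74.6, 97.3 and 94.6 (log2 fold change 0.26, standard error 0.19, adjusted p = 0.37) and *Brca1* at 35.6, 51.9 and 39.3 (log2 fold change 0.76, standard error 0.31, adjusted p = 0.11, and 1.05 with adjusted p = 0.021 without control replicate 1). *Atr* was at 11.9, 16.6 and 17, below controls 3 and 5 and on both sides of control replicate 1 (log2 fold change -0.74, standard error 0.36, adjusted p = 0.17, and -1.15 with adjusted p = 0.017 without control replicate 1). *Fancd2* was at 22.9, 19.6 and 21.2 (log2 fold change 0.68, standard error 0.35, adjusted p = 0.20, and 1.04 with adjusted p = 0.035 without control replicate 1). Thus *Brca1*, *Atr* and *Fancd2* passed without control replicate 1 and not with it. *Prkdc*, *Msh6* and *Tdp2* were at 23.3, 22.0 and 19.5, at 71.2, 84.2 and 85.5 and at 9.61, 29.6 and 18.7, with log2 fold changes of 0.38, 0.090 and 0.20. *Lig4*, *Rad54l* and *Ogg1*, which rose with DOX, had log2 fold changes of 0.87, 1.45 and 1.49 in DOX+IL-17A (adjusted p = 0.094, 0.15 and 0.066). *Wee1* had -0.85 (adjusted p = 0.079).

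**Figure D4:**
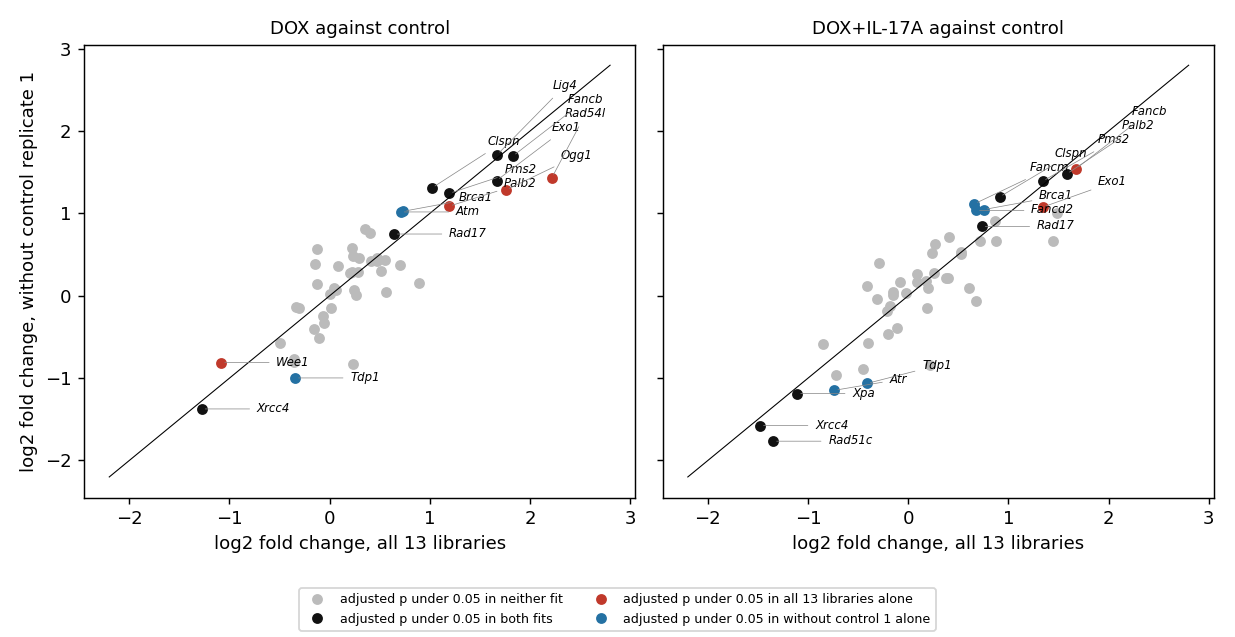
Log2 fold change of the 50 genes with all 13 libraries (horizontal axis) and without control replicate 1 (vertical axis), for DOX (left) and DOX+IL-17A (right) against control, with a line where both are equal. Red genes pass in the fit of all libraries alone (*Rad54l*, *Ogg1*, *Palb2* and *Wee1* with DOX, *Fancb* and *Exo1* with DOX+IL-17A), blue genes without control replicate 1 alone, and black genes in both.

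When control replicate 1 was left out, 8 repair genes were higher and 2 lower at the threshold in DOX, and 7 were higher and 5 lower in DOX+IL-17A. Those gained were *Atm*, *Brca1* and *Tdp1* in DOX, and *Atr*, *Brca1*, *Fancd2*, *Fancm* and *Tdp1* in DOX+IL-17A. *Tdp1* was at 20.2, 23.1 and 17.2 in DOX+IL-17A and 42.2, 46.7 and 41.3 in IL-17A, so that its 5 libraries without DOX other than control replicate 1 lay between 41.3 and 46.7 and its 7 libraries with DOX between 15.9 and 24.9. Over all genes, 21.7% passed in DOX and 21.2% in DOX+IL-17A in these fits.

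IL-17A alone changed no repair gene at the threshold, and neither did IL-17A added to DOX. Relative to control, 0 of 50 genes passed with IL-17A (limma), as in all other tools and settings run, and 2 had an unadjusted p under 0.05. Over all genes 1 gene passed (0.00812%) and 3.08% had an unadjusted p under 0.05. The smallest p-values were those of *Fance*, a Fanconi core subunit, and *Ogg1*. *Fance* was at 34.0, 31.8 and 32.0 in IL-17A and 8.46, 29.7 and 24.0 in control, and control replicate 1 lay below the other 5 libraries (log2 fold change 0.79, standard error 0.34, adjusted p = 0.96, unadjusted p = 0.035). *Ogg1* was at 5.97, 5.19 and 2.38 (log2 fold change 1.22, standard error 0.53, adjusted p = 0.96, unadjusted p = 0.036).

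With IL-17A added to DOX, 0 of 50 genes passed relative to DOX (limma and all other settings) and 4 had an unadjusted p under 0.05, against 0.455% and 6.35% of all genes. *Xpa* and *Rad51c* had the smallest p-values. Their values, given above, were lower in every DOX+IL-17A library than in every DOX library. *Xpa* had a log2 fold change of -0.62 (standard error 0.23, unadjusted p = 0.015, adjusted p = 0.53) and *Rad51c* of -1.0 (standard error 0.38, unadjusted p = 0.019, adjusted p = 0.59). In all, 7 of the 50 genes were lower in every DOX+IL-17A library (*Atm*, *Atr*, *Bard1*, *Rad50*, *Rad51c*, *Xpa* and *Xrcc5*, named after their values were seen) and *Fancd2* was higher in every one, against 5.61% and 4.66% of all genes. The median log2 fold change was -0.13 over the 50 genes and -0.028 over all genes.

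**Figure D5:**
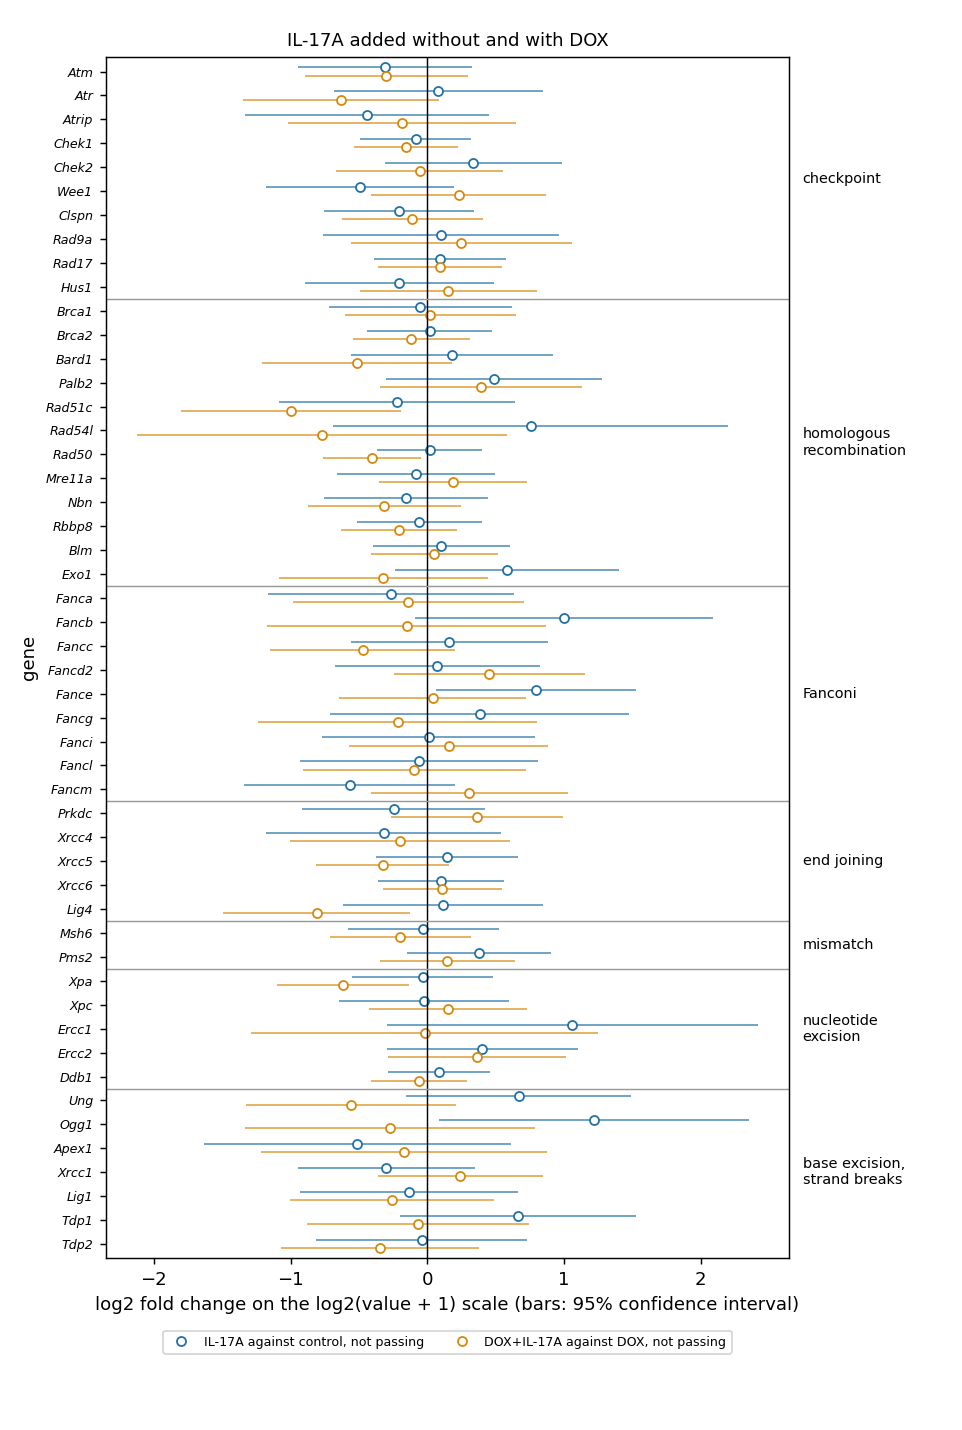
Log2 fold change on the log2(value + 1) scale of the 50 genes for IL-17A against control (blue) and DOX+IL-17A against DOX (orange), with 95% confidence intervals. No point is filled, since no gene passed, and the points run from -1.0 in *Rad51c* to 1.22 in *Ogg1*.

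The effect of IL-17A did not differ detectably with and without DOX in any of the 50 genes. For the difference of the 2 effects (an interaction), 0 of 50 genes passed in limma and in all other settings, and 1 had an unadjusted p under 0.05, against 0 and 4.51% of all genes. *Ung*, which removes uracil from DNA, came first. It was at 23.2, 51.2 and 30.1 in control, 35.1, 28.4, 21.9 and 34.1 in DOX, 20.9, 15.3 and 23.7 in DOX+IL-17A and 99.1, 51.1 and 29.2 in IL-17A. IL-17A replicate 2 was the highest of the 13 libraries and far above the others, and the difference between the effects was -1.23 on the log2 scale (95% confidence interval -2.35 to -0.10, unadjusted p = 0.035, adjusted p = 0.90). *Ogg1* followed with -1.49 (95% confidence interval -3.05 to 0.057, adjusted p = 0.90). The intervals of single genes were wide, with standard errors of this difference from 0.24 to 0.93.

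Between the groups with IL-17A, DOX+IL-17A against IL-17A, 4 genes rose and 2 fell, against 6.51% and 6.75% of all genes (13.3% in all). The rule for named genes did not cover this comparison, and these genes are named after their values were seen. *Clspn* rose by 1.12 (adjusted p = 0.012, limma) from 52.0, 43.9 and 42.2 in IL-17A. *Clspn* passed in each of the 13 fits without 1 library, with changes of 0.96 to 1.27. *Fancm*, a translocase that brings the Fanconi core to DNA, was at 10.7, 13.4 and 21.7 in IL-17A and 32.7, 31.9 and 43.3 in DOX+IL-17A (log2 fold change 1.23, adjusted p = 0.037). The *Fancm* call was lost when DOX replicates 1, 3 or 4, DOX+IL-17A replicates 2, 3 or 5 or IL-17A replicates 2 or 3 was left out (adjusted p up to 0.12, with changes of 1.02 to 1.5 over the 13 fits without 1 library). *Pms2*, at 20.6, 20.3 and 23.3 in IL-17A, had a log2 fold change of 0.96 (adjusted p = 0.019). The *Pms2* call was lost when DOX+IL-17A replicates 3 or 5 or IL-17A replicate 3 was left out (adjusted p up to 0.080, with changes of 0.84 to 1.18 over the 13 fits without 1 library).

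*Xrcc1*, the scaffold of single-strand break repair, was at 26.0, 23.3 and 18.9 in IL-17A and 47.2, 32.7 and 65.2 in DOX+IL-17A (log2 fold change 1.02, adjusted p = 0.038). The *Xrcc1* call was lost when DOX+IL-17A replicates 2 or 5 or IL-17A replicates 2, 3 or 5 was left out (adjusted p up to 0.13, with changes of 0.78 to 1.26 over the 13 fits without 1 library). *Xpa*, at 29.9, 31.4 and 39.7 in IL-17A, fell by 1.07 on the log2 scale (adjusted p = 0.010). *Xpa* passed in each of the 13 fits without 1 library, with changes of -1.21 to -0.93. *Ung* fell by 1.39 (adjusted p = 0.028). The *Ung* call was lost when DOX+IL-17A replicates 2 or 3 or IL-17A replicates 2 or 3 was left out (adjusted p up to 0.11, with changes of -1.81 to -0.94 over the 13 fits without 1 library), and under scaling by library size (adjusted p = 0.053). Without control replicate 1, which enters this comparison through the shared spread alone, 8 genes rose and 6 fell (28%, against 22.2% of all genes in that fit). In a fit of these 6 libraries alone, *Pms2* and *Xrcc1* did not pass. With the replicate number as a block (same-numbered libraries of these 2 groups deviated together) the 6 genes named passed. In all 8 passed (4 higher, 4 lower), which is 16% against 15.5% of all genes.

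Of 91 further genes of the same pathways, listed by function, 87 were in the table, and with DOX 19 of these rose and 3 fell (25.3%, against 22.1% of all genes). Homologous recombination held the largest number, with 8 of 20 rising and 0 falling. *Xrcc2*, a gene of strand exchange, rose from 4.07 ± 2.70 (SD, n = 3) to 14.0 ± 2.37 (SD, n = 4) (log2 fold change 1.74, standard error 0.43, adjusted p = 0.0095), and was at 16.5 ± 7.41 (SD, n = 3) in DOX+IL-17A (log2 fold change 1.89, standard error 0.46, adjusted p = 0.011). With DOX+IL-17A, 7 of the 20 rose. In the checkpoint list 4 of 16 rose and 0 fell, led by *Rpa2* (single-strand binding, log2 fold change 1.19) and the fork protection pair *Tipin* (1.09) and *Timeless* (1.03).

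In end joining 2 of 7 rose, *Dclre1c* (the nuclease Artemis, 1.29) and *Polq* (the polymerase of end joining at short homologies, 1.1). In nucleotide excision repair 4 of 14 rose and 1 fell, with *Gtf2h3* (1.75) and *Gtf2h1* (1.53) of the repair helicase complex TFIIH and *Ercc8* (1.33) of transcription-coupled repair rising most. In base excision repair *Fen1*, the flap nuclease, rose from 34.5 ± 17.1 (SD, n = 3) to 121 ± 17.6 (SD, n = 4) (log2 fold change 1.90, standard error 0.41, adjusted p = 0.0047), and *Nthl1*, a glycosylase, fell from 4.71 ± 3.89 (SD, n = 3) to 0.511 ± 0.573 (SD, n = 4) (log2 fold change -1.77, standard error 0.47, adjusted p = 0.015), on 2 to 17 reads per DOX library. *Rev3l*, of translesion synthesis, was the 1 of 11 further Fanconi genes that passed, with -0.60, and 0 of 5 mismatch repair genes passed. With DOX+IL-17A, 14 of the 87 rose and 1 fell (17.2%, against 17.7% of all genes).

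As a reference, 11 of 22 genes of S phase rose with DOX and 1 fell (median log2 fold change 0.80), and in DOX+IL-17A 12 passed, all of them higher (median 0.83). Of 18 genes of mitosis, 1 rose and 0 fell in either comparison, with medians of 0.21 and 0.16. Of 12 genes of the p53 pathway, 2 rose and 0 fell with DOX (*Aen* by 2.16 and *Sesn2* by 1.56 on the log2 scale), while in DOX+IL-17A 3 of the 12 passed as higher and 1 as lower. The control values of *Sesn2* rest on 2 to 7 reads, near the limit of detection. The summed value of the 22 S phase genes was 2849, 1627 and 1358 in control replicates 1, 3 and 5. It was 2500 to 2674 in DOX, 2491 to 2736 in DOX+IL-17A and 1710 to 2031 in IL-17A. The high sum of control replicate 1 leaned on *Mcm7*, at 1208 there against 331 and 358 in the other controls and 402 to 477 in DOX. Among the controls, *Mcm3* and *Pola1* were also highest in replicate 1, while *Mcm6*, *Cdc45* and *Slbp* were lowest there. The sum therefore does not rank S phase expression of that library. The part of S phase gene expression in the repair gene results was not tested.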

How the data were processed

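RNA of 13 samples of 4T1-Thy1.1 cells was sequenced with QuantSeq 3′ libraries, single-end, and trimmed with Trimmomatic, aligned to mm10 with STAR and counted per gene with featureCounts by the authors. Whether counting used strand is not given in the sources used here. The authors deposited TMM-normalized signal, in which the reads of a gene are relative to an effective library size. All deposited values (100%, within 0.05 of a read) were whole multiples of a per-library step, so reads were recovered from them. Library totals were 4445592 to 16930600 reads on genes, and 1 repeated identical entry was dropped. Genes were filtered on recovered reads with edgeR 4.0.16 (filterByExpr), and 12319 of 13222 remained. Groups were compared on log2(value + 1) with limma 3.58.1 (trend) over the 13 libraries, with group as the only factor, 9 residual degrees of freedom and Benjamini-Hochberg adjustment over all tested genes. Fold changes on this scale understate those of low genes. A gene passed at an adjusted p under 0.05, and a stricter call also required a fold change above 2.

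The members and the further lists were chosen with earlier results of these data known. Values per library were given for a gene or more of each pathway chosen for its role, for up to 3 genes per pathway with the largest changes among those passing with DOX and up to 2 with DOX+IL-17A, and where none passed for the 2 with the smallest p. Alternatives were voom with limma, edgeR quasi-likelihood and DESeq2 1.42.0 on the recovered reads, library size scaling, other filters, a pseudocount of 0.1, fits of the compared groups alone, a replicate block and leaving out each library. Deviations from group means of same-numbered libraries correlated over 0.1 in each of the 3 pairs of DOX+IL-17A and IL-17A (0.17, 0.20 and 0.35). This is a hint of pairs from the data that the labels do not give. For that comparison the fit with the replicate block is therefore given beside the main fit, which took no pairs. The fit was tested on simulated data. Positions are from the GENCODE annotation of GRCm38 (mm10), where the last 500 bases of 1 gene overlapped exons of another gene on the same strand and those of 11 overlapped exons on the other strand. Promoters are from RefSeq (GRCm38.p6).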

Additional observations from a re-analysis of the deposited data

Results flagged for a closer look

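In DOX, the only group of 4 libraries, each of the 50 genes was checked for a library far from the other 3, and chance alone places about 1 in 20 groups past the limit used. It was passed by 2 genes, both through DOX replicate 1. *Wee1* was at 46.4 in that library and 31.6 to 33.7 in the other DOX libraries, a gap of 0.86 of the group's range. *Fanca*, a Fanconi core subunit, was at 4.10 against 1.40 to 1.79, also a gap of 0.86. The 3′ end of *Fanca* overlaps *Zfp276* on the other strand. DOX replicate 1 also had the highest sum of muscle and red blood cell markers (256). The part of that in these values was not tested.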

How the results depend on the processing

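The main fits did not take the replicate numbers as pairs. Outside DOX+IL-17A against IL-17A, deviations of same-numbered libraries did not correlate over 0.1 in every pair. Over all groups the correlation was 0.15 on average in 13 such pairs (lowest -0.18, 8 over 0.1). In 50 pairs of different number it was -0.037 on average (13 over 0.1). With the replicate block, 9 of the 50 genes passed for DOX against control (8 higher, 1 lower), 7 for DOX+IL-17A against control, 8 for DOX+IL-17A against IL-17A and 0 in the other comparisons. For DOX against control this is 18%, against 14.4% of all genes with the block. For DOX+IL-17A it is 14% against 12.2% relative to control, and 16% against 15.5% relative to IL-17A. Not passing with the block were, for DOX, *Rad17* (adjusted p = 0.13), *Palb2* (0.061) and *Xrcc4* (0.087) and, for DOX+IL-17A against control, *Rad17* (0.060) and *Xrcc4* (0.055). Scaling by library size moved the median log2 fold change of the repair genes to 0.40 for DOX against control, 0.37 for DOX+IL-17A against control and 0.38 for DOX+IL-17A against IL-17A. The median of all genes moved as well, to 0.24, 0.20 and 0.22 in the same order. With the compared groups alone, 1 repair gene passed for DOX+IL-17A against control, and the share of all genes in this fit is not given here. It could not be made for the interaction. Leaving out 1 library at a time, 6 to 11 genes passed for DOX against control (6 without DOX replicate 3, and 7 without control replicate 5 or DOX replicate 2), 3 to 12 for DOX+IL-17A against control (3 without control replicate 5, and 5 without DOX+IL-17A replicates 3 or 5) and 2 to 14 for DOX+IL-17A against IL-17A (2 without IL-17A replicate 3, 3 without DOX+IL-17A replicates 2 or 5 or IL-17A replicate 2, and 14 without control replicate 1). Without control replicate 1, 22.2% of all genes passed for DOX+IL-17A against IL-17A. Shares of all genes in the fits without another library are not given here. Over the fits without 1 library the median of the repair genes was -0.20 to -0.024 for DOX+IL-17A against DOX, 0.086 to 0.27 for DOX+IL-17A against IL-17A and -0.19 to -0.016 for the interaction. Changes near 0 turned sign in genes that did not pass. For DOX, *Atr* was at 0.065 with library size scaling and -0.52 to 0.15 without 1 library (0.048 without control replicate 3, 0.15 without control replicate 5), *Fancd2* at -0.059 (without control replicate 5) to 0.58, and *Prkdc* at -0.056 with voom, -0.019 with DESeq2 and -0.15 to 0.14 without 1 library (-0.15, -0.11 and -0.054 without control replicate 1, DOX replicate 3 and DOX replicate 4). For DOX+IL-17A against control, *Msh6* was at -0.046 (without control replicate 5) to 0.26 and *Tdp2* at -0.16 (without DOX+IL-17A replicate 3) to 0.60. The causes were not tested. Groups of 3 or 4 libraries limit what these comparisons can detect.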
